A study of Mus musculus with 8 samples.

Results

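A set of 10 genes of the Notch pathway and of the switch between absorptive and secretory fate were followed in fetal mouse gut, the small intestine at E18.5. They are the ligand genes Dll1, Dll3, Dll4, Jag1 and Jag2, the receptor genes Notch1 and Notch2, the target gene Hes1, the related gene Hes6, and Atoh1. They were chosen by name, and every non-control probe whose gene name equalled one of the 10 was taken. That gave 13 of the 55681 distinct probes on the array, or 10 of 36161 names, since Dll3, Notch1 and Notch2 have 2 probes each and the other genes 1.

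Whole small intestine was compared between 4 control embryos and 4 mutant embryos, each on its own Agilent array. Control replicates 1, 3 and 4 were Rfx6 fl/+ and control replicate 2 was Rfx6 fl/fl, with no Cre named for any of them. All 4 mutants were Rfx6 fl/fl Ngn3-cre, so that Rfx6, a transcription factor of endocrine cells, is deleted only in cells that have expressed Cre under Ngn3 (Neurog3), and every embryo of both groups carried at least 1 floxed Rfx6 allele. Cre itself is present in the mutants alone, and its own effects cannot be told apart from those of the deletion. The comparison asks which genes of the fetal gut depend on Rfx6 in endocrine cells, which are a small share of the tissue.

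Notch signalling passes between touching cells. Delta-like and Jagged proteins on a cell bind Notch receptors on its neighbour, the receptor is cut, and its inner part enters the nucleus and acts with the DNA-binding protein RBPJ on genes such as Hes1. In the intestinal epithelium Hes1 represses Atoh1, so cells with active Notch become absorptive, while cells that escape it express Atoh1 and Delta-like ligands and become goblet, Paneth or endocrine cells. Neurog3 then marks the endocrine branch. Notch genes are also active in the vessels, muscle and nerve of the gut wall.

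Levels are given as the log2 of the processed spot intensity minus the log2 of that array's 75th percentile, so 0 is the 75th percentile and 1 unit is a 2-fold step. They compare the same probe between arrays, not different genes. Differences are mutant minus control on this log2 scale. In bulk RNA, fewer cells of a type and less RNA per cell cannot be told apart.

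The arrays were alike in brightness, with a 75th percentile of 788 to 1027 intensity units and 59.7% to 69.9% of distinct probes detected well above background. All 10 enterocyte markers and all 8 goblet markers tested were well above background on all 8 arrays. Mutant replicate 1 stood apart: its deviations from its own group had an SD of 0.53 over all tested probes, against 0.23 to 0.31 on the other arrays, and a member's difference is also given without it where that turns the sign or moves the value by over 1.5 times. The probe for Rfx6 itself does not check the labels. Its difference was -0.50 (SE 0.52, limma adjusted p = 0.828), with mutant replicate 1 at -5.52, not well above background, and the other mutants at -3.37 to -3.02, within the controls at -3.48 to -2.93. The hormone genes do separate the groups: 6 of 10 endocrine markers were called, all 6 lower in the mutants, against 0.0423% of all tested probes called. Of the 10, 7 were lower and 3 higher. Those not called were Chga (-0.27), Chgb (0.026), Pcsk1 (0.11) and Tph1. Tph1 was higher in the mutants by 0.60 (SE 0.12, limma adjusted p = 0.357), with no overlap between the groups.

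None of the 13 probes for the 10 Notch and fate genes passed an adjusted p of 0.05 in limma over all 35472 tested probes, of which 15 passed, or 0.0423%. At an unadjusted p under 0.05 there was 1 probe of the 13, that of Atoh1, against 5.05% of all tested probes. The groups overlapped for all 13, while they did not overlap for 4.38% of all tested probes. The limma adjusted p of the 13 lay between 0.828 and 0.964. In 9 probes the mutant mean was higher and in 4 it was lower, and 55.4% of all tested probes were higher. The median difference of the 13 was 0.084, and that of all tested probes 0.024.

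These are bounds on a change in RNA of the whole small intestine as well as missed thresholds. They do not bound a change within a small share of its cells. The 95% interval of the difference lay inside a 2-fold change in either direction for 12 of the 13 probes, all but the dimmer Notch1 probe. Among all 35472 tested probes it did so for 31203. The 12 include the brighter Notch1 probe, whose interval reached down to 0.502-fold. They also include the dimmer Notch2 probe, which was well above background on only 2 of 4 arrays in each group. It lay inside a 1.5-fold change for 10 of the 13, and for 66.0% of all tested probes.

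**Figure D1:**
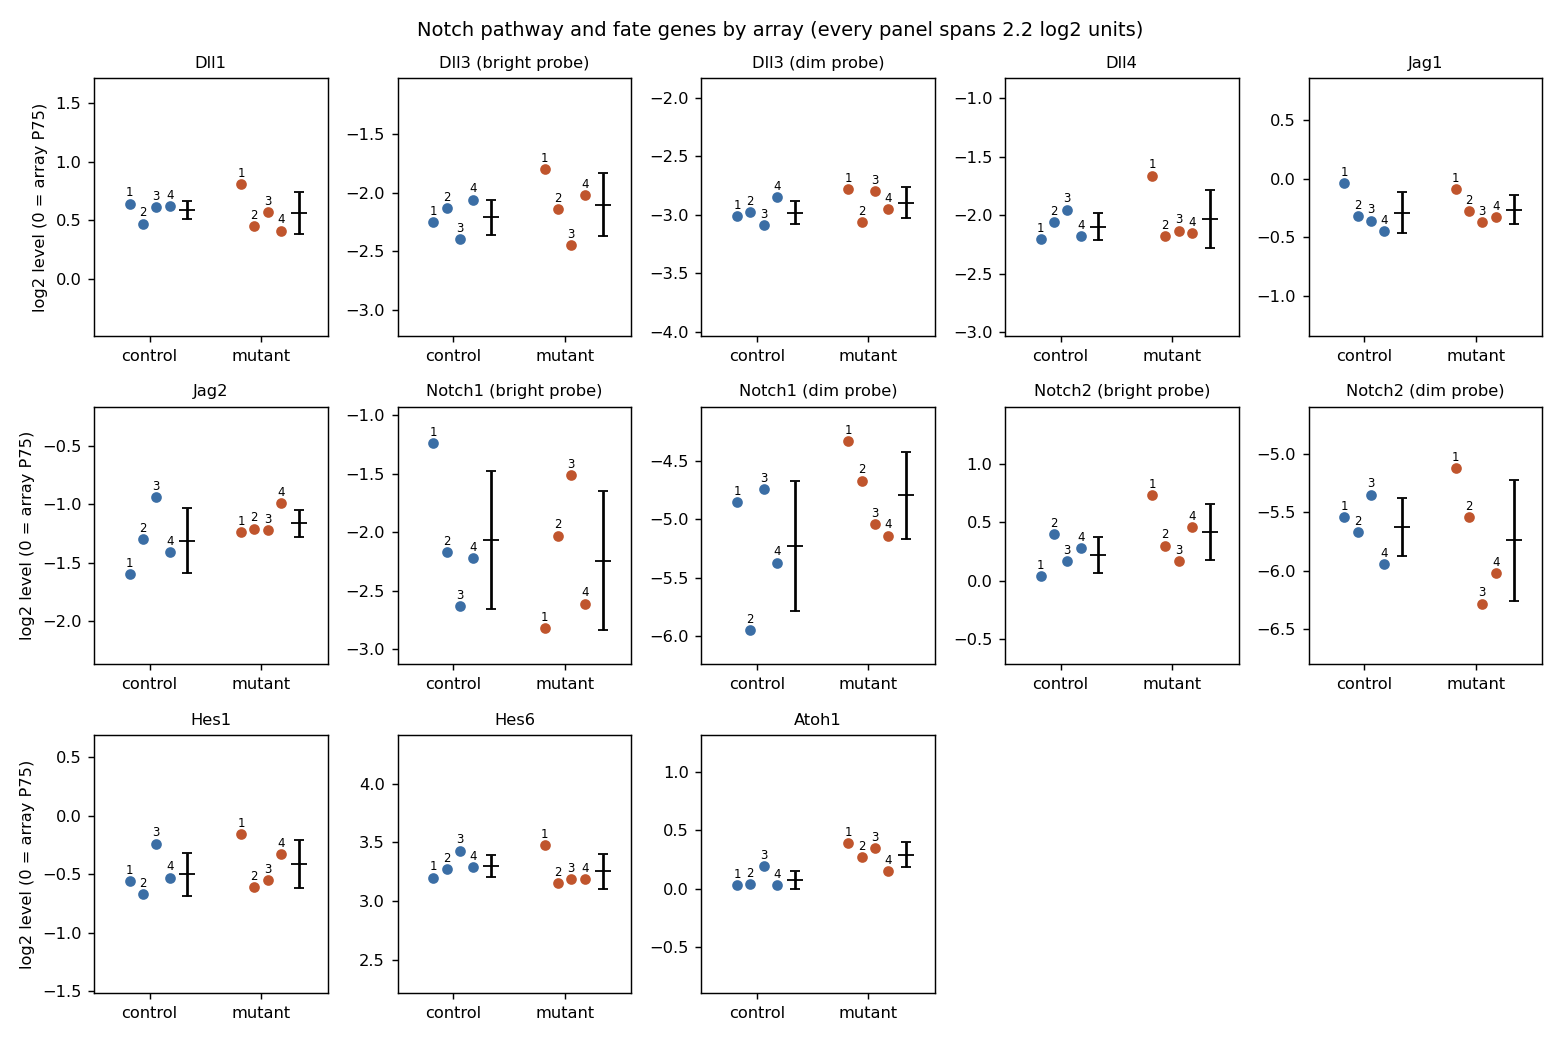
Log2 level of each of the 13 probes on each array, relative to the array's 75th percentile (P75), with control arrays in blue and mutant arrays in orange. Numbers are replicates, and the black bars are the group mean and SD (n = 4). The groups overlap in every panel, most narrowly for Atoh1, where only mutant replicate 4 at 0.15 lies below control replicate 3 at 0.19.

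Of the ligands, Dll1, the Delta ligand of early secretory cells, was read by 10 spots of its probe on each array, of which 9 were used on control replicate 2 (chromosome 17, 15504623 to 15504682, minus strand, mm9). Its level was 0.64, 0.47, 0.61 and 0.62 in control replicates 1 to 4 and 0.81, 0.45, 0.57 and 0.41 in mutant replicates 1 to 4. The mutants thus lay on both sides of the controls, with replicate 1 above all of them and replicates 2 and 4 below. The group means were 0.58 ± 0.08 and 0.56 ± 0.18 (SD, n = 4 each), and the difference was -0.025 (SE 0.11, 95% interval -0.28 to 0.23, limma adjusted p = 0.958). Spots of this probe on the same array had an SD of 0.044 to 0.072, below the SD between embryos. Without mutant replicate 1 the difference was -0.11 (SE 0.08).

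Dll4 encodes the Delta ligand best known from the tips of growing vessels and also made by secretory progenitors. Its probe (chromosome 2, 119160779 to 119160838, plus strand) read -2.20, -2.06, -1.95 and -2.18 in the controls and -1.66, -2.18, -2.13 and -2.15 in the mutants. Mutant replicate 1 was the highest array, and the other mutants lay within the range of the controls. The difference was 0.068 (SE 0.14, 95% interval -0.24 to 0.38, limma adjusted p = 0.904), and without mutant replicate 1 its sign turned, to -0.054 (SE 0.08). Of 13 endothelial markers, 0 were called, with 10 higher and 3 lower and a median difference of 0.14. Mutant replicate 1 was the highest array for most of these markers too.

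Dll3, a Delta-like protein that mainly stays inside the cell and does not activate Notch on a neighbour, has 2 probes on chromosome 7, whose starts lie 298 bases apart. The brighter (29078763 to 29078822, minus strand) read -2.25, -2.13, -2.40 and -2.06 in the controls and -1.80, -2.14, -2.45 and -2.02 in the mutants. The dimmer (29079061 to 29079120) read -3.01, -2.98, -3.09 and -2.85 against -2.78, -3.06, -2.80 and -2.95. On either probe the groups overlapped and mutant replicate 1 was the highest array. The differences were 0.11 (SE 0.15) and 0.084 (SE 0.10), with limma adjusted p of 0.855 and 0.844, so the 2 probes gave the same sign and a similar size. Without mutant replicate 1 they were 0.0087 (SE 0.13) and 0.045 (SE 0.09).

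Jag1 and Jag2 encode the Jagged ligands, Jag1 being prominent in vessel walls. Jag1 (chromosome 2, 136907433 to 136907492, minus strand) read -0.04, -0.32, -0.36 and -0.45 in the controls and -0.09, -0.28, -0.37 and -0.33 in the mutants. Its mutant values all lay within the range of the controls, and the difference was 0.023 (SE 0.12, 95% interval -0.25 to 0.29, limma adjusted p = 0.964), or -0.035 (SE 0.11) without mutant replicate 1. Jag2 (chromosome 12, 114146887 to 114146946, minus strand) read -1.60, -1.30, -0.94 and -1.41 in the controls and -1.24, -1.21, -1.22 and -0.99 in the mutants. The Jag2 controls spread more widely than the mutants, with SDs of 0.28 and 0.12, and again enclosed them. Its difference was 0.14 (SE 0.15, 95% interval -0.19 to 0.48, limma adjusted p = 0.828). All 7 smooth muscle markers tested had a higher mean in the mutants, by 0.18 to 0.26, and 0 were called. Their shared direction leans on the same arrays. Mutant replicate 1 was the highest array for each of them, and control replicate 3 the lowest for all but Mylk. Acta2, for example, read 6.48, 6.59, 5.93 and 6.58 in the controls and 6.93, 6.56, 6.49 and 6.42 in the mutants. Whether these markers bear on the Jagged ligands was not tested.

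Both Notch1 probes and the dimmer Notch2 probe were the least precise of the 13, with SEs of 0.25 to 0.36, and for both Notch1 and Notch2 the 2 probes gave opposite signs. The sequences below are the brighter Notch1 probe and the dimmer probes of Notch2 and Dll3, shown because each is 1 of a pair that reads the same gene and because a difference between the members of a pair limits what can be said of that gene. They run 5′ to 3′ as in the array files, with the longest run of purines (A or G) in capitals.
Notch1 brighter probe: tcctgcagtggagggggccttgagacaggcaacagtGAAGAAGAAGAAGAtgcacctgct
Notch2 dimmer probe: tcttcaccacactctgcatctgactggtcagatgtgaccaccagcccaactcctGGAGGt
Dll3 dimmer probe: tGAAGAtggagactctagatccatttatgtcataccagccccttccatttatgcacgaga
The Notch1 sequence lies at chr2:26319440-26319499 (minus strand, mm9), that of Notch2 at chr3:97951233-97951292 (plus strand) and that of Dll3 at chr7:29079061-29079120 (minus strand). Purine runs set the Notch1 probes apart. The brighter probe has a run of 14, which 1.64% of all probes on the array equal or exceed, and the dimmer probe (chromosome 2, 26314630 to 26314689, minus strand) has a run of 19, equalled or exceeded by 0.453%. The runs of the other 11 probes were 4 to 10 bases long. The exons and UTRs that these positions fall in were not analysed here.

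Notch1, the receptor of the epithelial progenitors and of vessels, read -1.24, -2.17, -2.63 and -2.22 on its brighter probe in the controls and -2.82, -2.03, -1.51 and -2.61 in the mutants. Control replicate 1 and mutant replicate 3 were high, and the groups covered nearly the same range. The difference was -0.18 (SE 0.36, 95% interval -1.0 to 0.64, limma adjusted p = 0.904). The residual SD of 0.59 was larger than that of 92.1% of tested probes. Leaving out mutant replicate 1 gave 0.013 (SE 0.37), and leaving out control replicate 1 gave 0.096 (SE 0.31).

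The dimmer Notch1 probe was well above background on 2 of 4 control arrays and all 4 mutant arrays. It read -4.85, -5.95, -4.74 and -5.37 in the controls and -4.33, -4.67, -5.04 and -5.14 in the mutants, a difference of 0.43 (SE 0.29, 95% interval -0.23 to 1.09, limma adjusted p = 0.828). That difference was 0.27 (SE 0.29) without mutant replicate 1, 0.19 (SE 0.24) without control replicate 2, 0.17 (SE 0.13) under normexp background correction and 0.15 (SE 0.10) in the table of values the authors deposited.

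Notch2, the other Notch receptor of the intestinal epithelium, had a bright probe (chromosome 3, 97953914 to 97953973, plus strand) and a dim one whose start lies 2681 bases away. The bright probe read 0.04, 0.40, 0.17 and 0.28 in the controls and 0.73, 0.30, 0.17 and 0.46 in the mutants. Only mutant replicates 1 and 4 exceeded all controls, and the difference was 0.19 (SE 0.14, 95% interval -0.13 to 0.52, limma adjusted p = 0.828). It was 0.090 (SE 0.11) without mutant replicate 1. The dim probe was well above background on 2 arrays of each group and read -5.54, -5.67, -5.35 and -5.94 against -5.12, -5.54, -6.28 and -6.02. Its difference was -0.12 (SE 0.25, limma adjusted p = 0.912), -0.32 (SE 0.20) without mutant replicate 1, and 0.041 (SE 0.10) under normexp background correction.

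Hes1 is the repressor through which Notch holds back Atoh1, and the usual readout of Notch activity in the gut. Its probe (chromosome 16, 30067820 to 30067879, plus strand) read -0.56, -0.67, -0.24 and -0.53 in the controls and -0.16, -0.61, -0.55 and -0.33 in the mutants. The groups covered nearly the same range, with control replicate 3 and mutant replicate 1 the highest of each. The difference was 0.087 (SE 0.14, 95% interval -0.23 to 0.40, limma adjusted p = 0.875). It was 0.0020 (SE 0.12) without mutant replicate 1.

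Hes6, a relative of Hes1 that is known to oppose it and to be made in neurogenic and endocrine progenitors, was read at chromosome 1, 93308264 to 93308323 (minus strand). Its level was 3.20, 3.27, 3.43 and 3.29 in the controls and 3.48, 3.15, 3.19 and 3.19 in the mutants. Mutant replicate 1 was the highest array, while the other 3 mutants all lay just below the lowest control. The difference was -0.044 (SE 0.11, 95% interval -0.28 to 0.20, limma adjusted p = 0.918), and -0.12 (SE 0.08) without that array.

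Atoh1, the factor that opens the secretory fate, came nearest to separating the groups. Its probe (chromosome 6, 64681161 to 64681220, plus strand, mm9) read 0.03, 0.04, 0.19 and 0.03 in control replicates 1 to 4 and 0.39, 0.27, 0.35 and 0.15 in mutant replicates 1 to 4. Control replicates 1, 2 and 4 lay together at the bottom, and 3 mutants lay above every control. The means were 0.072 ± 0.08 and 0.29 ± 0.11 (SD, n = 4 each), a difference of 0.22 (SE 0.09, 95% interval 0.0045 to 0.43), or 1.16-fold with an interval of 1.00 to 1.35. The limma adjusted p was 0.828 (0.0462 unadjusted). An exact two-sided permutation test of this probe gave p = 0.0571, where the smallest p that 4 against 4 arrays allow is 0.0286. Over the 13 probes the exact permutation p was 0.0571 to 0.8.

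The Atoh1 difference was among the most precise of the group, with a residual SD of 0.09, lower than that of all but 6.09% of tested probes. It was 0.18 (SE 0.08, limma adjusted p = 0.793) without mutant replicate 1, and it was positive in all 20 alternatives, at 0.18 to 0.26, with a limma adjusted p of 0.493 to 0.959.

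**Figure D2:**
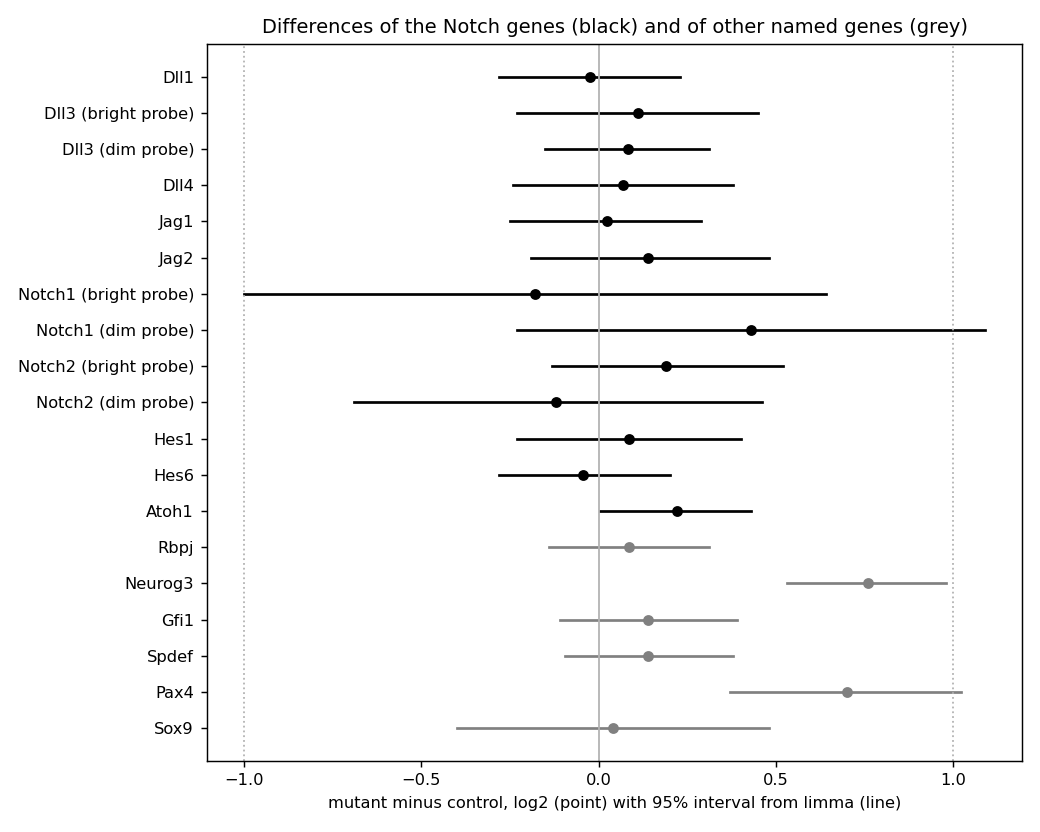
Difference between mutant and control means (log2, points) with the 95% interval from limma (lines), for the 13 Notch and fate probes in black and 6 other named genes in grey. Dotted lines mark a 2-fold change. The black intervals include 0 except that of Atoh1, which starts at 0.0045, and Neurog3 at 0.76 and Pax4 at 0.70 lie to the right of all black points.

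The promoter of Atoh1 is shown because Hes1 is known to repress this gene. The 250 bases before its start site (RefSeq, GRCm38.p6, chr6:64728875-64729124, plus strand) follow, with matches to CACGCG or its reverse complement in capitals, a sequence that Hes and Hey factors are known to bind.
Atoh1 upstream: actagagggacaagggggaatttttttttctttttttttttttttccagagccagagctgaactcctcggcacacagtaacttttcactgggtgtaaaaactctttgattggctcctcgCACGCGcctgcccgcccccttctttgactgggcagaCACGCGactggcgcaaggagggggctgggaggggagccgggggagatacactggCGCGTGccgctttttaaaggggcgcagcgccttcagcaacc
Besides CACGCG, the letters TGGGAA (core of the RBPJ site), CACNAG (the N-box of Hes factors), the E-boxes CACGTG, then CAGCTG, then CAGATG, and the letters GTTGCC (part of the RFX site) were searched on both strands. The window ran from 250 bases before to 50 after each start site, and 9 of the 10 genes matched the promoter table, with 11 promoters. The gene without a match was Hes1, the Notch target, so its promoter was not searched and no count here covers it. CACGCG was found in 6 of the 11, of Atoh1, Dll1, Dll4, Jag1, Jag2 and Notch2, and in 9.27% of all 32851 promoters of the table. The member promoters are rich in G and C, at 52.0% to 87.2% before the start site. CAGCTG was in 5 of 11, of Dll1, Dll3, Hes6 (both starts) and Jag1, against 16.3% of all, and CACNAG in 6 of 11 against 42.5%, where overlapping matches were counted once per promoter. The RBPJ core was in 0 of 11 against 25.6% of all promoters, CACGTG in 0 against 7.15%, CAGATG in 0 against 17.2%, and the part of the RFX site in 0 against 12.5%. These are matches of letters in a short window and show no binding.

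Mutant replicate 1 gave the highest level of the 8 arrays for 8 of the 11 member probes that were well above background on all arrays. Its median deviation from the mutant mean was 0.226 over these 11 probes and 0.12 over all tested probes, while the medians of the 11 on the other arrays were -0.101 to 0.022. Without this array 8 of 13 probes were higher and 5 lower, the median difference was 0.0087 and 0 were called, at an unadjusted p under 0.05 as well. The sign turned for Dll4, Jag1 and the brighter Notch1 probe. The part of array quality in these levels was not tested.

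**Figure D3:**
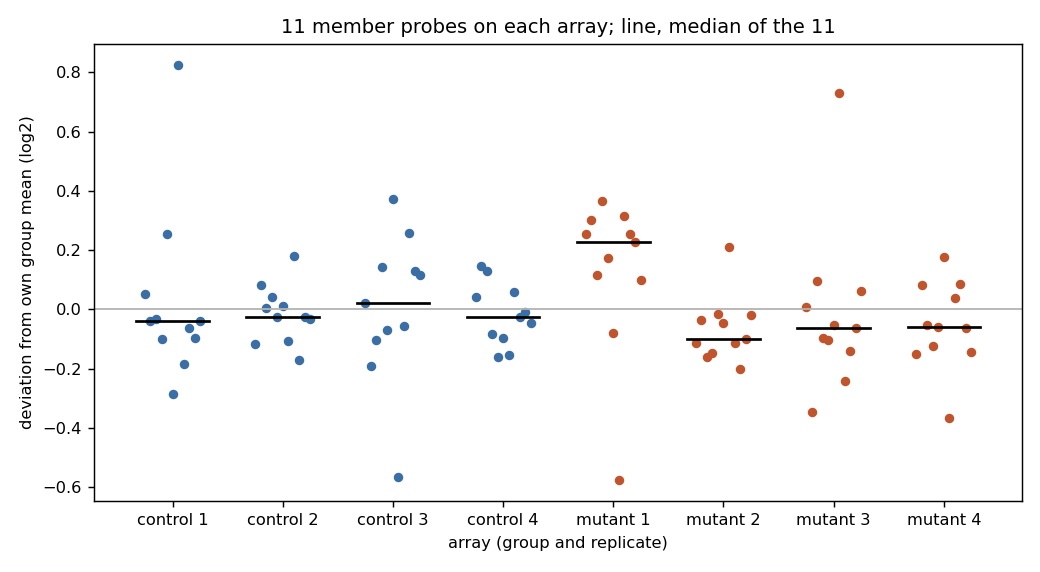
Deviation of each array from the mean of its own group (log2) for the 11 member probes well above background on all 8 arrays, with the median as a line. Mutant replicate 1 lies above its group for most probes, with a median of 0.226, and the 4 points beyond 0.5 in size (control replicates 1 and 3, mutant replicates 1 and 3) all belong to the brighter Notch1 probe.

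The rest of the pathway was as flat. Of 71 other genes listed by step, 68 were tested and 0 were called in limma, 37 being higher and 31 lower with a median difference of 0.013. At an unadjusted p under 0.05 there were 3 of the 68, against 5.05% of all tested probes. For 1 of the 68 the groups did not overlap, against 4.38% of all tested probes. The 95% interval lay inside a 2-fold change for 66 of the 68, and for 31203 of all 35472 tested probes.

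By step, 0 of 7 other receptors and non-canonical ligands were called (5 higher, 2 lower), among them the vessel receptors Notch3 (-0.086, SE 0.12) and Notch4 (0.092, SE 0.13), which are named after their values were seen. Mfap5, an extracellular matrix protein reported to bind Notch, had the largest difference of that list, 0.70, with an SE of 0.49 (limma adjusted p = 0.828). Of the 6 genes of ligand endocytosis, 5 were higher and 1 lower. Neurl1b, a ubiquitin ligase that acts on ligands, was the gene without overlap, at 4.55, 4.57, 4.53 and 4.45 in the controls and 5.29, 4.81, 4.64 and 4.70 in the mutants, a difference of 0.34 (SE 0.15, limma adjusted p = 0.828). Of 8 genes of receptor cleavage, 7 were lower, the largest difference being that of the gamma-secretase gene Aph1b at -0.62 (SE 0.21, limma adjusted p = 0.828). Its mutants read 1.37, 0.90, 0.86 and 0.71 and its controls 1.32, 1.46, 2.13 and 1.41, and mutant replicate 1 lay among the controls.

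Glycosylation and trafficking genes (5 of 6 higher, median 0.17), receptor turnover (5 of 11 higher, median -0.033) and the nuclear complex (14 of 22 higher, median 0.034) held 0 called genes. Of all tested probes, 55.4% were higher, and mutant replicate 1 was the highest array for each glycosylation and trafficking gene. Rbpj, the DNA-binding partner of Notch, differed by 0.085 (SE 0.10, 95% interval -0.14 to 0.31, limma adjusted p = 0.841), and by 0.027 (SE 0.08) without mutant replicate 1. Of the 8 tested Hes and Hey targets and feedback genes, 2 were higher and 6 lower with a median of -0.12, and 0 were called. Hes2 had the lowest unadjusted p of these, with a difference of -0.37 (SE 0.15, limma adjusted p = 0.828). Hey2, Heyl and Bhlhe40 differed by -0.29 (SE 0.22), -0.24 (SE 0.14) and -0.22 (SE 0.12). The Hey2 probe was dim, with means of -4.9 in controls and -5.19 in mutants, and was well above background on only 2 of 4 mutant arrays. Hey1 and Nrarp, at -0.028 and -0.019, were the flattest, and Hes5 and Hes7, each at 0.11, were the genes that were higher. Aph1b, Neurl1b and Hes2 are the 3 genes at an unadjusted p under 0.05.

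**Figure D4:**
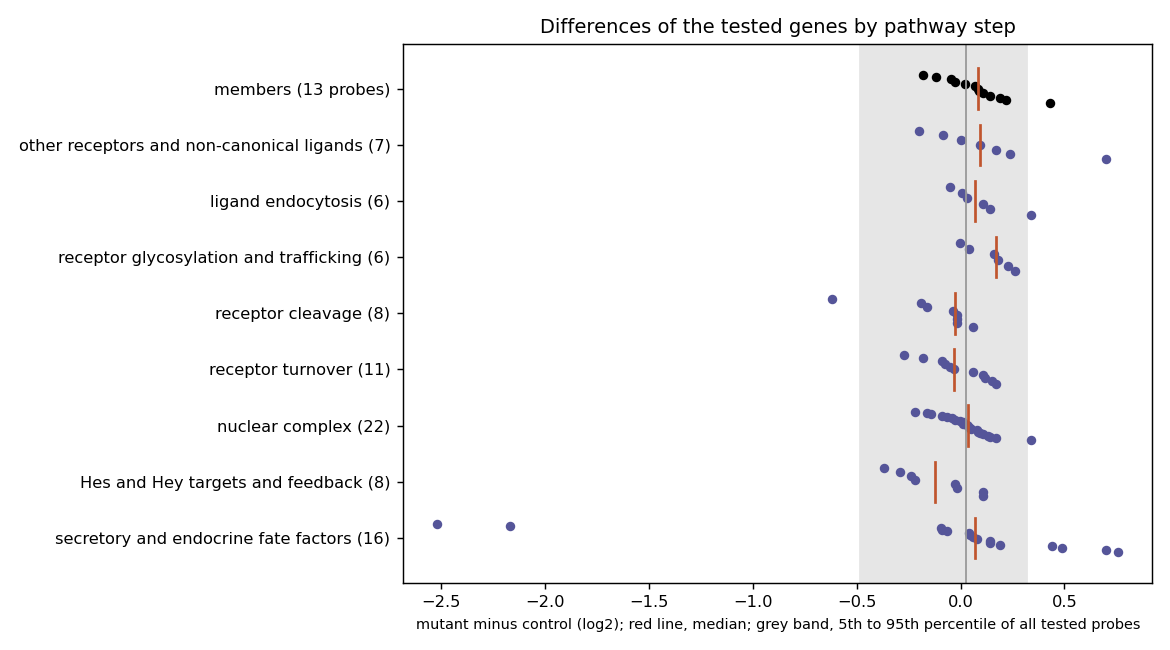
Difference between mutant and control (log2) of each tested gene, 1 point a gene (a probe for the 13 members), by step of the pathway, with the list median in red and the 5th to 95th percentile of all tested probes (-0.483 to 0.32) as a grey band. The Notch steps lie mostly within the band, with Mfap5 at 0.70 above it and Aph1b at -0.62 below it, and the points farthest below it are fate factors.

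Downstream of the switch, some factors of the endocrine branch separated the groups and others did not. Of 16 tested secretory and endocrine fate factors 2 were called, both lower, against 0.0423% of all tested probes. For 4 of the 16 the groups did not overlap, against 4.38% of all tested probes. The endocrine factors Neurod1, Insm1 and Nkx2-2 were not called and had overlapping groups. They differed by 0.49 (SE 0.36), -0.091 (SE 0.16) and 0.058 (SE 0.15). The Neurod1 value leans on mutant replicate 1. That gene read -3.81, -4.52, -4.20 and -4.51 in the controls and -2.63, -4.33, -4.20 and -3.93 in the mutants. Isl1, a factor of maturing endocrine cells, fell from -4.05 ± 0.18 to -6.57 ± 0.33 (SD, n = 4 each) on this scale, given as at least 3.19-fold, as the signal of its probe in all 4 mutants was not well above background (limma adjusted p = 0.00139). That bound sets the control mean against, on each mutant array, whichever is higher, the value of the Isl1 probe or that of the dimmest probe still well above background. The size depends on the processing. The difference was -2.52 on this scale and -0.63 under normexp (limma adjusted p = 0.0468), which here adds an offset of 50 intensity units. Such an offset shrinks differences between dim readings. In the deposited table the difference was -0.70 (limma adjusted p = 0.00626). Neither alternative gives a fall as large as that bound. Over all alternatives run the limma adjusted p was 9.73e-05 to 0.0949.

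Neurog3, the factor that starts the endocrine programme and whose sequences drive Cre here, read 0.05, 0.23, 0.14 and 0.18 in the controls and 1.03, 0.72, 0.89 and 0.98 in the mutants. Every mutant lay above every control, by a mean of 0.76 (SE 0.10, 95% interval 0.53 to 0.98), yet the limma adjusted p was 0.0861. Over the 20 alternatives it ranged from 0.0254 to 0.748 and was under 0.05 in 4. Pax4, a factor just below Neurog3, was also without overlap, at -2.62, -2.21, -2.01 and -2.02 against -1.42, -1.58, -1.54 and -1.54, a difference of 0.70 (SE 0.14, limma adjusted p = 0.415). The intervals of Neurog3 and Atoh1, 0.53 to 0.98 and 0.0045 to 0.43, did not overlap, and the difference between the 2 genes was not tested. Of 6 pancreas markers, 4 were tested and 0 were called, and all 4 had a higher mean in the mutants. For Cela2a that direction was set by the filter on dim probes. It was well above background on 0 control and 4 mutant arrays, and so passed only through the mutants. The summed level of the 4 (the array's 75th percentile being 1) was 0.741 to 1.96 in controls and 2.51 to 13.2 in mutants. Prss1 and Ptf1a of that list did not pass the filter on dim probes. The part of pancreatic RNA in the levels of Neurog3 and Pax4 was not tested.

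Factors of the other secretory fates were not called. Gfi1 and Spdef, which act below Atoh1 in the goblet and Paneth lineages, differed by 0.14 (SE 0.11, limma adjusted p = 0.828) and 0.14 (SE 0.10, limma adjusted p = 0.828), with overlapping groups. Gfi1b, a relative of Gfi1 found in tuft cells, differed by 0.44 (SE 0.15, 95% interval 0.099 to 0.79, limma adjusted p = 0.828, 0.0176 unadjusted). Bhlha15, a factor of mature secretory cells, differed by 0.19 (SE 0.10, limma adjusted p = 0.828). Both also had overlapping groups, and the mutant mean was the higher for all 4 of these genes. Elsewhere on that list the direction was mixed. Xbp1 and Creb3l1 differed by 0.045 (SE 0.09) and 0.081 (SE 0.09), and Sox4 and Klf4 by -0.096 (SE 0.08) and -0.064 (SE 0.10). Sox9, a factor of progenitor and Paneth cells, differed by 0.040 (SE 0.19, limma adjusted p = 0.963), and without mutant replicate 1 or 4 by -0.082 (SE 0.18) or -0.079 (SE 0.19). Of 8 goblet, 4 Paneth, 3 tuft, 10 enterocyte and 7 stem and progenitor markers tested, 0 were called. Their medians were 0.042, 0.030, -0.027, 0.053 and -0.067. In the stem list the groups did not overlap for 1 gene, the ion transporter gene Slc12a2, which was lower in the mutants by -0.40 (SE 0.15, limma adjusted p = 0.828) and is named after its values were seen.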

How the data were processed

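RNA of whole intestine was labelled with Cy3 and hybridised to 1-colour Agilent arrays of design 028005. The authors deposited linear spot intensity values per array, read with Feature Extraction 10.10.1.1 per the submitters' processing notes and the file headers. Per the file headers, that intensity had the background subtracted and a spatial trend removed, with no scaling across arrays. The authors also deposited an intensity table whose processing the labels do not state, used as an alternative. From these, log2 processed intensity minus the log2 75th percentile over 59305 non-control spots was computed for each array. Outlier spots (117 to 157 an array) were dropped and spots of a probe averaged. No non-control spot was saturated. A probe was tested when well above background (at least 50% of its spots) on at least 4 of 8 arrays, without regard to group, and all 13 member probes passed.

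Group was the only term of the fit (lmFit, then eBayes, of limma 3.58.1 under R 4.3.3). Its two-sided p-values were adjusted by Benjamini-Hochberg across the 35472 tested probes, with a threshold of 0.05, and the code was tested on simulated data. All arrays lay on 1 slide. Nothing says whether embryos shared a litter, and the number of arrays limits the precision.

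The genes, lists and motifs were chosen with earlier results of these data known. Titles and source names set the groups, although the description field of 3 mutants (replicates 2 to 4) gives other Rfx genes. Named are all members, and of the other pathway and fate genes those called, those without overlap that differ by at least 0.5, and Neurog3, Rbpj and Sox9. Others were named after their values were seen, and cell type markers are given mostly as counts. Where a listed gene has several probes, the brightest tested probe was used. Genes of similar pattern were to be named for a member without overlap, and there was none. Of the called fate factors, 1 is not reported here. Alternatives covered background correction (normexp, with an offset of 50 intensity units), scaling, filters, blocks, array weights and leaving out each array.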

Additional observations from a re-analysis of the deposited data

Results flagged for a closer look

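Within each group of 4 arrays, the highest and lowest values were set against Dixon's 95% critical value for 4 values, applied to the gap to the nearest array as a share of the group's range. Of 36 groups (13 member probes and 5 other named genes, 2 groups each) 4 held such an array, against 1.8 by chance at 1 in 20. Mutant replicate 1 was high for Dll4 (-1.66, the others -2.18 to -2.13) and for Hes6 (3.48, the others 3.15 to 3.19). Mutant replicate 4 was high for Jag2 (-0.99, the others -1.24 to -1.21). Control replicate 3 was high for Atoh1 (0.19, the others 0.03 to 0.04), and without it the Atoh1 difference was 0.26 (SE 0.10).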

How the results depend on the processing

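No member probe was called in limma in any of the 20 alternatives, which gave 255 values in all, since the dimmer probes drop out of some. The direction was kept in every alternative run by 6 of the 13 probes and 14 values turned sign, all from differences that had not passed. With arrays weighted by quality (0.126 for mutant replicate 1, 0.91 to 2.1 for the others), Dll3 (brighter probe) was -0.022, Dll4 -0.038, Notch1 (brighter) 0.10, Hes1 -0.0011 and Sox9 -0.14, and the dimmer Notch2 probe was 0.041 under normexp correction. Leaving out 1 array at a time gave -0.11 to 0.024 for Dll1, -0.054 to 0.12 for Dll4, -0.035 to 0.11 for Jag1, -0.42 to 0.096 for the brighter Notch1 probe, -0.32 to 0.065 for the dimmer Notch2 probe and -0.082 to 0.18 for Sox9. The sign turned without mutant replicate 2 or 4 for Dll1, without mutant replicate 3 for the dimmer Notch2 probe, without control replicate 3 or 4 or mutant replicate 1 for Jag1, without control replicate 1 or mutant replicate 1 for the brighter Notch1 probe, without mutant replicate 1 for Dll4, and without mutant replicate 1 or 4 for Sox9. The cause was not tested.

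Neurog3 passed in 4 of 20 alternatives (adjusted p 0.0254 to 0.748). The count of called probes, 15, became 24 under normexp and 39 with array weights. It was 9 to 20 with 1 array left out, lowest at 9 without control replicate 2 (the Rfx6 fl/fl control) or mutant replicate 3. With the replicate number as a block it was 7, with 0 member probes, and Isl1 missed the threshold (adjusted p 0.0949), which it passed in the other 18 alternatives that gave it a value. Deviations of same-numbered arrays correlated at -0.087, 0.090, 0.003 and 0.10 across probes, which gives no sign that the numbers pair the samples. With 4 arrays a group this cannot decide whether any embryos were paired.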
